A study of Mus musculus with 9 samples.

Results

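The step from fetal to neonatal life was examined in sorted mouse muscle stem cells, using 6 of the 9 arrays of the series. These were the 3 arrays of fetal cells (embryonic day 16.5) and the 3 arrays of neonatal cells (day 7 after birth). The other 3 arrays, of adult cells (2 months), entered the model to estimate the spread and also counted in the choice of each gene's probe. Their values are given beside the step where they help to read it. All mice were of the C57BL/6 strain, no allele or agent is given for any group, and the labels give muscle as the source without naming a muscle or limb. Cells had been sorted on α7-integrin and CD34. Whether replicates came from different animals is not in the labels, and if they did not, the p-values reflect only technical spread. Every gene with an annotated probe was described, 12488 in all, with 1 probe per gene.

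Muscle stem cells lie along muscle fibres under the basement membrane and carry the transcription factor Pax7. In the fetus and the first weeks after birth they divide and fuse into growing fibres, and later most of them become quiescent. Birth also changes what reaches them: hormones, oxygen, nutrients, microbes and nerve input all differ between the uterus and the nest. The lists of genes described below cover these systems.

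Levels are log2 intensities and include the array's background, so changes of dim genes are compressed; the array medians lay between 8.58 and 8.60 and the 5th percentiles near 7.5. A change is the neonatal mean minus the fetal mean and is given ± its SE. Each adjusted p is that of limma after Benjamini-Hochberg adjustment over all genes. "Rose" and "fell" are used only for genes with an adjusted p under 0.05. Unless another value stands beside it, the call of each gene named as having risen or fallen held with each of the 9 arrays left out in turn. Values on single arrays are given in the order of replicates 1, 2 and 3.

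The markers of muscle stem cells were first set against the label. Pax7 read 8.42, 8.54 and 8.50 on the fetal arrays and 8.45, 8.57 and 8.47 on the neonatal arrays, close to the array medians, and its change of 0.01 ± 0.16 was smaller than its error (adjusted p = 0.97). The determination factor Myf5 was dim at both ages (means of 7.77 ± 0.02 and 7.48 ± 0.06, SD, n = 3 arrays, adjusted p = 0.12 by limma). Myod1, the factor that commits cells to the muscle lineage, rose from 10.93, 10.95 and 11.12 to 12.05, 12.11 and 12.32 (1.16 ± 0.13, adjusted p = 0.00015). All 3 neonatal arrays lay above all fetal ones, which also held for 15.3% of all genes. Myog, which drives differentiation, read 11.73, 12.54 and 12.97 on neonatal arrays against 11.26, 11.44 and 11.45 (adjusted p = 0.22). On only the 6 arrays of the step Myog was called (0.026, or 0.0030 with the replicate block), as it was without adult replicate 3 (0.021). The fusion gene Mymk read 10.39, 10.87 and 11.22 against 9.31, 9.30 and 8.97 (adjusted p = 0.058, or 0.036 with the replicate number as a block); on only the 6 arrays it was called at 0.00069 (0.00032 with the block), and without adult replicate 2 or 3 at 0.0095 and 0.0035. Of the genes used for the sort, Itga7 changed by 0.46 ± 0.18 (adjusted p = 0.12, or 0.017 with the replicate block) and Cd34 by 0.05 ± 0.23 (adjusted p = 0.92). Of 26 genes linked to stem cell quiescence 7 rose and 2 fell (26.9% and 7.69%, against 6.01% and 6.72% of all genes). The rises numbered 3 without fetal replicate 2 or neonatal replicate 3 and 4 without fetal replicate 3 or neonatal replicate 2. The falls numbered 0 without fetal replicate 1, 2 or 3 or neonatal replicate 2 or 3. Transcripts of surface proteins rose: Cd82, a tetraspanin, by 1.36 ± 0.13 (adjusted p = 4.4e-05) and Calcr, the calcitonin receptor of quiescent cells, by 1.39 ± 0.22 (adjusted p = 0.0019).

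The summed intensity of 18 erythroid markers was 6435 to 13553 on fetal and 96009 to 177692 on neonatal arrays, and 9 of the 18 rose (50%, against 6.01% of all genes called higher and 6.72% called lower). Of 14 fibroadipogenic markers 2 rose and 5 fell (14.3% and 35.7%), with changes from -1.65 to 0.87 and a median of -0.12. The median level of the 14 was 10.34 to 10.56 on fetal and 9.07 to 10.98 on neonatal arrays, with replicate 1 the highest neonatal array. With fetal replicate 1, 2 or 3 or neonatal replicate 2 or 3 left out, 2 or 3 of these genes fell; 0 rose with fetal or neonatal replicate 2 or 3 left out, and 1 with neonatal or adult replicate 1 left out. Pdgfra, the receptor that defines these cells, read 10.47, 10.04 and 10.51 on fetal and 9.78, 8.72 and 8.31 on neonatal arrays and fell by 1.40 ± 0.30 (adjusted p = 0.01, 0.050 without fetal replicate 3), while its other probe changed by 0.12; Dpp4 fell by 1.29 ± 0.26 (adjusted p = 0.0066). The summed endothelial markers were 6676 to 7069 on fetal and 5102 to 8393 on neonatal arrays, and 2 of the 16 rose and 3 fell (12.5% and 18.8%; 1 rose without fetal replicate 1, 2 or 3). Changes of the 16 endothelial markers ran from -1.26 to 1.14, with a median of 0.08. Flt1, a VEGF receptor, fell by 1.26 ± 0.26 (adjusted p = 0.0076), and the adhesion molecule Pecam1 was not called (adjusted p = 0.24). The summed mural markers were 54698 to 64132 on fetal and 68624 to 74907 on neonatal arrays, the Schwann and neural markers 11419 to 12273 and 14179 to 15227, and the adipocyte markers 1178 to 2197 and 892 to 1011, with no overlap between the ages in these 3 lists. All 6 macrophage and all 7 granulocyte and lymphocyte markers lay under the array median on all 6 arrays. Adipoq, the adipocyte hormone, was high on fetal replicate 1 alone (10.32, against 8.30 and 8.52 on the other fetal arrays). In bulk RNA, a change in the share of a cell type and a change of RNA per cell cannot be told apart, and the part that these other cells played in the results below was not tested.

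**Figure D1:**
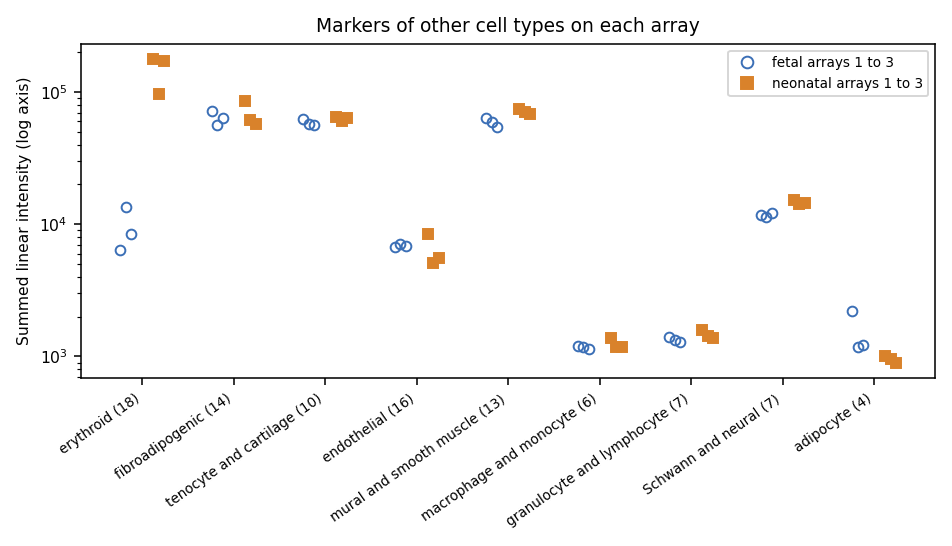
Summed linear intensity (log axis) of the measured markers of 9 other cell types, with 1 point for each of the 3 fetal (open circles) and 3 neonatal (filled squares) arrays and the number of markers in brackets. The erythroid sum is 6435 to 13553 on fetal and 96009 to 177692 on neonatal arrays, the mural and Schwann sums are also higher and the adipocyte sums lower on all neonatal arrays, and the endothelial and fibroadipogenic ranges overlap. Of the 13 mural markers themselves, 0 were called higher and 3 lower, and of the 7 Schwann and neural markers 0 higher and 1 lower.

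Of the 12488 genes, 1590 were called (12.7%), 751 higher in neonatal cells (6.01%) and 839 lower (6.72%). The median change over all genes was -0.0062. The fetal and neonatal arrays did not overlap for 4079 genes (32.7%), with neonatal values higher for 1913 and lower for 2166. A change of at least 2-fold was seen in 211 of the genes that rose and 178 of those that fell, and 371 rises and 369 falls were called with each of the 9 arrays left out in turn. The count of 1590 fell to 881 without fetal replicate 2, to 927 without fetal replicate 3 and to 899 without neonatal replicate 3. Fetal replicate 1 was the highest fetal array for 446 of the 751 genes that rose and the lowest for 406 of the 839 that fell. Where a gene had other probes on the array, these had the same sign in 1088 of 1251 cases among called genes, and 0 were called in the opposite direction. For 25 of 95 called genes examined by name, however, every other probe moved by under 0.33 of the change or the opposite way. The size of the changes given for these genes thus rests on 1 probe. These include Angptl4, Cdon, Dis3l2, Ephb1, Esr1, Foxo1, H2-K1, Hif3a, Hr, Insr, Itpr2, Lss, Musk, Nnat, Nr1d2, Pdgfra, Pfkl, Psmb8, Rtl1, Sema3a, Slit2, Slit3, Stat5a and Tcf7l1. Among them, the other probe of Angptl4 was also called higher in a limma fit of all probes (0.82, adjusted p = 0.0037). So was that of Hr (0.75, adjusted p = 0.035).

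Changes were ranked among called genes whose arrays did not overlap and whose higher group mean reached the median of all genes (9.16). Provisional symbols were left out. The largest rises in this ranking were those of the adult-type haemoglobin chains, the oxygen carriers of red blood cells. Hba-a1 read 8.62, 11.27 and 9.24 on fetal and 15.78, 14.48 and 15.68 on neonatal arrays, and Hbb-bt and Hbb-bs rose by 5.57 ± 0.51 and 5.54 ± 0.45 (adjusted p = 3.6e-05 and 1.8e-05). The red cell anion exchanger Slc4a1 (3.40 ± 0.39) and Alas2, the erythroid enzyme of haem synthesis (2.50 ± 0.30), rose with them, each lowest in replicate 2 of the neonatal arrays. The other 10 of the 15 largest rises were genes of varied roles. Atp2a3, a calcium pump of the endoplasmic reticulum, rose 18.7-fold, from 9.96, 8.60 and 8.35 to 13.06, 13.08 and 13.43 (adjusted p = 1.8e-05). Erfe, a secreted regulator of iron supply, and Angptl4, a secreted inhibitor of lipoprotein lipase, rose by 3.60 ± 0.34 and 3.36 ± 0.33. Ret, the receptor tyrosine kinase of the GDNF family, Flvcr2, a membrane transporter, and Gask1b, a Golgi-associated protein, rose by 3.13 ± 0.30, 2.80 ± 0.20 and 2.91 ± 0.18. C1qtnf3, a secreted relative of adiponectin, the nuclear corepressor Hr and the kinase Dapk2 rose by 2.67 ± 0.26, 2.53 ± 0.15 and 2.49 ± 0.13. Esr1, the oestrogen receptor, rose by 2.68 ± 0.18 on the probe used, but its other 2 probes changed by 0.21 and 0.02.

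The deepest fall in the same ranking was that of Igf2bp1, which binds the Igf2 and other growth-related mRNAs in fetal tissues. Igf2bp1 read 11.57, 11.48 and 11.26 on fetal and 8.38, 8.26 and 8.49 on neonatal arrays (-3.06 ± 0.13, adjusted p = 3.4e-07). Hif3a, a member of the hypoxia-inducible factor family, fell by 3.04 ± 0.18 on the probe used, with changes of -0.14 and -0.24 on its other probes. Tro, a member of the MAGE family, fell by 2.73 ± 0.16. The fast-fibre troponin Tnni2 (-2.72 ± 0.22) and the carbonic anhydrase Car3 (-2.72 ± 0.23) fell alike. The D-type cyclin Ccnd2 read 11.63, 11.89 and 12.001 on fetal arrays and 10.76, 8.75 and 8.49 on neonatal arrays, so that neonatal replicate 1 lay well above the other 2. The rest included secreted factors: Igfbp2 (-2.39 ± 0.15), the Wnt-binding protein Sfrp2 (-2.35 ± 0.12), the gut and brain peptide Cck (-2.28 ± 0.22), Fgf10 (-2.26 ± 0.12), the protease-like Prss35 (-2.19 ± 0.28) and the vasoconstrictor peptide Edn2 (-2.15 ± 0.23). The epithelial genes Krt14, a keratin (-2.72 ± 0.26), and Upk3b, a uroplakin (-2.36 ± 0.22), fell, and both were highest on fetal replicate 1 (11.02 and 10.70). Hoxb4 completed the 15 and is described next.

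**Figure D2:**
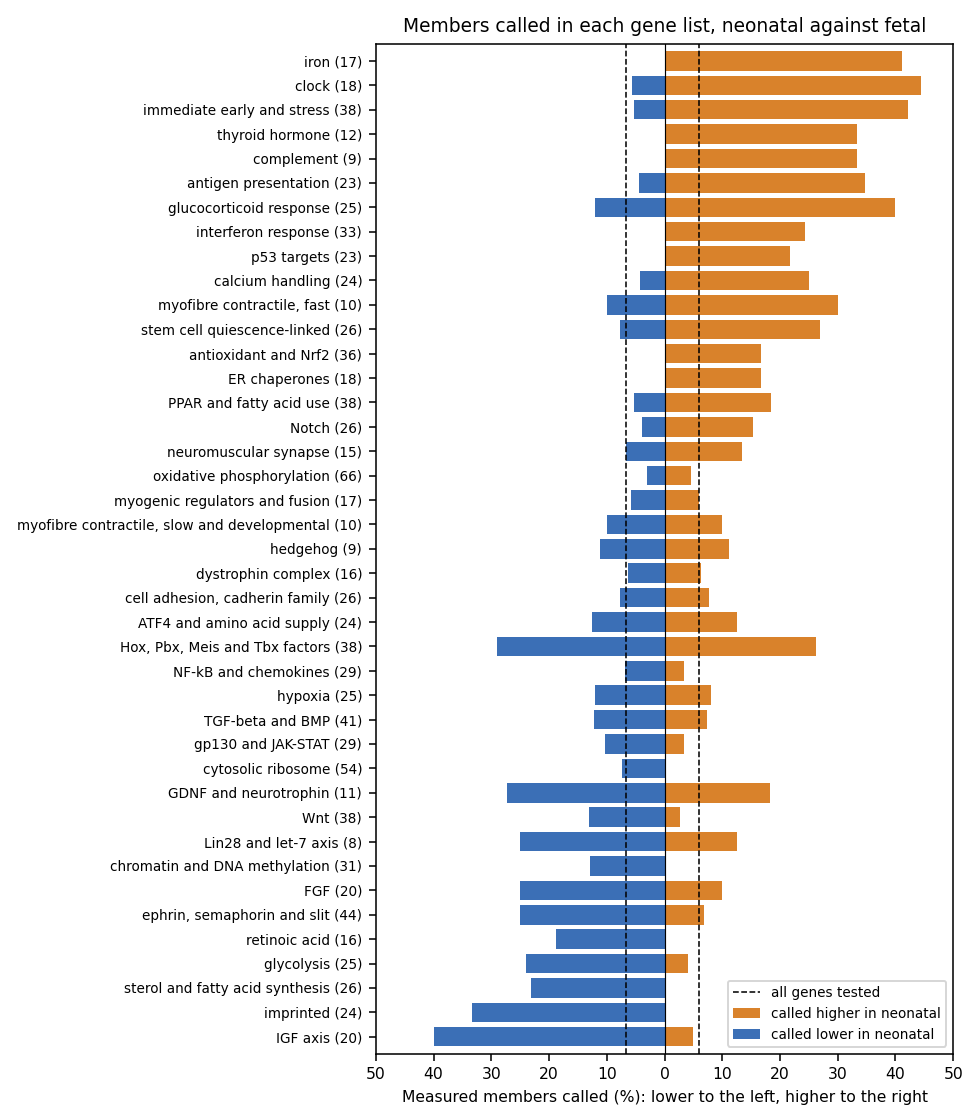
Percent of the measured members of 41 gene lists that were called higher (right, orange) or lower (left, blue) in neonatal than in fetal cells, with the number of members in brackets and the shares over all 12488 genes as dashed lines (6.01% and 6.72%). The iron, clock and immediate early lists lie farthest to the right, the IGF and imprinted lists farthest to the left, and the Hox, Pbx, Meis and Tbx list extends to both sides.

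Transcription factors that mark position along the body changed in both directions. Hox genes lie in 4 chromosomal clusters, and their paralogue number follows their order along the cluster: low numbers mark the neck and upper trunk, high numbers the lower trunk and the limbs. Of 38 measured Hox, Pbx, Meis and Tbx factors, 10 rose and 11 fell (26.3% and 28.9%, against 6.01% and 6.72% of all genes); 6 rose without fetal replicate 2. Among the 24 Hox genes measured, 5 rose and 8 fell, and grouping them by number, which was done after their values were seen and carries no test, put the rises and the falls apart. Of the 9 genes with numbers 1 to 5, 6 fell and 0 rose, with a median change of -0.95. Of the 5 with numbers 6 to 8, 2 fell (1 without fetal replicate 2 or neonatal replicate 2). Of the 6 with numbers 9 and 10, 5 rose and 0 fell, with a median of 0.84 (3 rose without fetal replicate 2 or 3 or neonatal replicate 3). Of the 4 with numbers 11 to 13, none was called by limma.

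The deepest Hox falls were those of Hoxb4 and Hoxb5. Hoxb4 read 9.66, 10.01 and 9.85 on fetal and 7.57, 7.44 and 7.25 on neonatal arrays (-2.42 ± 0.13, adjusted p = 1.2e-06), and Hoxb5 8.59, 9.37 and 9.23 against 7.48, 7.42 and 7.51 (-1.59 ± 0.17, adjusted p = 0.00012). The neonatal values of both genes lay near the 5th percentile of the arrays. Hoxb2 and Hoxb7 fell by 0.79 ± 0.14 and 0.78 ± 0.14, Hoxa2 by 1.38 ± 0.15, Hoxd3 by 0.95 ± 0.16 and Hoxd4 by 1.13 ± 0.16. Hoxc6, which was bright at both ages, read 12.14, 12.17 and 12.05 on fetal and 11.64, 11.33 and 11.59 on neonatal arrays (adjusted p = 0.017, a call lost at 0.072 when fetal replicate 2 was left out and at 0.073 when neonatal replicate 2 was).

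The rises were those of Hoxc10, Hoxc9, Hoxa9, Hoxa10 and Hoxd9. Hoxc10, a gene of the lumbar trunk and hindlimb, read 10.01, 9.44 and 9.49 on fetal and 11.47, 12.03 and 11.95 on neonatal arrays, a 4.50-fold rise (adjusted p = 2.2e-05). Hoxc9 read 11.47, 10.69 and 10.62 against 12.61, 12.36 and 12.55 (1.58 ± 0.22, adjusted p = 0.00075), and Hoxa9 8.21, 8.01 and 8.0 against 8.67, 9.41 and 9.48 (1.11 ± 0.24, adjusted p = 0.0093). For each of the 3 genes the fetal and neonatal arrays did not overlap, which also held for 32.7% of all genes. Hoxa10 and Hoxd9 rose by 0.56 ± 0.13 and 0.46 ± 0.12, but these calls were lost without fetal replicate 2 (adjusted p = 0.077 and 0.088), fetal replicate 3 (0.075 and 0.082) or neonatal replicate 3 (0.081 and 0.11). Hoxd10 changed by -0.19 ± 0.13 (adjusted p = 0.43).

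Other positional factors of the list moved as well. Tbx4, which specifies the hindlimb, read 9.32, 8.78 and 8.97 on fetal and 10.19, 10.44 and 10.39 on neonatal arrays (1.32 ± 0.15, adjusted p = 0.00019). Lbx1, a factor of the muscle precursors that migrate into limbs, rose by 1.16 ± 0.20 and Tbx1, a factor of head muscle, by 0.92 ± 0.17. Meis2, a Hox cofactor of proximal limb and trunk, read 9.89, 10.07 and 10.43 on fetal and 8.48, 8.04 and 8.21 on neonatal arrays (-1.89 ± 0.17, adjusted p = 3.0e-05), and Tbx3 fell by 0.80 ± 0.14. The adult means lay on no single side. Hoxc10 averaged 11.82 on neonatal and 11.87 on adult arrays, Hoxc9 12.51 and 12.63, Hoxb5 7.47 and 7.40, and Meis2 8.24 and 8.41. Hoxa10, with means of 7.53, 8.09 and 7.59 at the fetal, neonatal and adult ages, and Hoxd9, with 8.09, 8.55 and 8.11, had adult means close to the fetal ones. Hoxa9 lay between (8.07, 9.19 and 8.70), and the 3 means of Tbx3 were 9.48, 8.68 and 9.87.

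**Figure D3:**
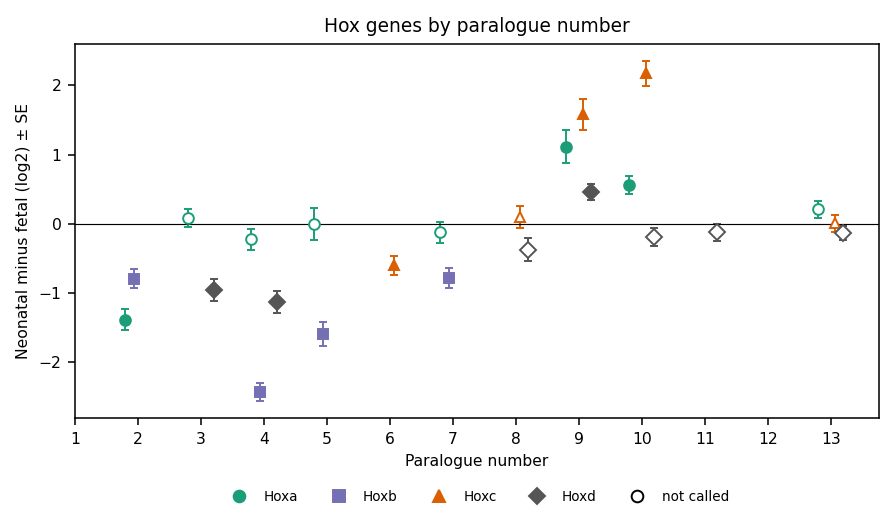
Neonatal minus fetal change (log2 ± SE from limma) of the 24 measured Hox genes against paralogue number, with the 4 clusters by colour and symbol and open symbols for genes not called. The genes called among numbers 2 to 7 lie below 0, the 5 called among numbers 9 and 10 lie above 0, and those from 11 to 13 lie near 0.

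Insulin-like growth factors drive growth before birth through a receptor tyrosine kinase, and binding proteins carry or block them. Of 20 genes of the axis, 8 fell and 1 rose (40.0% and 5.0%, against 6.72% and 6.01% of all genes), with a median change of -0.19. The ligand Igf2 was among the brightest genes at both ages (15.64, 15.91 and 15.70 fetal, 15.79, 15.69 and 15.65 neonatal, adjusted p = 0.89), and Igf1 averaged 10.75 and 10.68 (adjusted p = 0.88). Adult cells had a lower Igf2 mean of 14.43. Among the receptors, Insr read 10.57, 10.96 and 11.07 on fetal and 9.83, 10.23 and 10.12 on neonatal arrays (-0.80 ± 0.15, adjusted p = 0.0057). Igf2r, the imprinted receptor that clears Igf2, fell by 0.74 ± 0.12 (adjusted p = 0.0017, but 0.088 with the most variable probe). Igf1r, the signalling receptor, fell by 0.56 ± 0.15 (adjusted p = 0.034), a call that was lost in 5 of the 9 fits with 1 array left out: without fetal replicate 1 (0.062), 2 (0.12) or 3 (0.10) or neonatal replicate 1 (0.086) or 3 (0.12).

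Among the binding proteins, Igfbp2 read 10.62, 10.70 and 10.57 on fetal and 8.59, 7.92 and 8.20 on neonatal arrays (adjusted p = 3.2e-06), and Igfbp5, a binding protein of differentiating muscle, fell by 0.78 ± 0.14 (adjusted p = 0.0042). Stc1, a secreted inhibitor of the protease that frees IGF from its binding proteins, fell by 1.19 ± 0.18 (adjusted p = 0.0011). Igfbp6 was the 1 member that rose, with 9.73, 8.32 and 8.31 on fetal and 12.73, 10.24 and 10.12 on neonatal arrays (2.24 ± 0.59, adjusted p = 0.029). Its replicate 1 stood above the others at both ages, and the call was lost without fetal replicate 2 or 3 (adjusted p = 0.12 for each). The mRNA-binding proteins of the axis fell: beside Igf2bp1, Igf2bp3 read 12.35, 12.57 and 12.63 on fetal and 11.24, 11.10 and 11.27 on neonatal arrays (-1.32 ± 0.12, adjusted p = 4.2e-05), and its adult mean was 7.60. Dis3l2, the nuclease that degrades precursors of the let-7 microRNAs marked by Lin28, read 10.30, 10.13 and 10.21 on fetal and 11.84, 11.83 and 12.10 on neonatal arrays (1.71 ± 0.16, adjusted p = 3.6e-05), while its other probe changed by -0.05. Of 8 measured genes of the Lin28 and let-7 axis 1 rose and 2 fell (12.5% and 25.0%, against 6.01% and 6.72% of all genes). Lin28b and Hmga2, the best known genes of that axis, were not analysed here.

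Imprinted genes are read from 1 parental copy, and many of them regulate fetal growth. Of 24 measured, 8 fell and 0 rose (33.3% and 0%, against 6.72% and 6.01% of all genes), with a median change of -0.39. Nnat, a small membrane proteolipid, read 9.85, 9.78 and 9.54 on fetal and 8.21, 8.24 and 8.39 on neonatal arrays (-1.44 ± 0.12, adjusted p = 2.2e-05). Ndn, a growth-restraining MAGE protein, read 13.80, 13.72 and 13.72 against 12.78, 12.56 and 12.52 (-1.13 ± 0.11, adjusted p = 6.4e-05). Rtl1, a retrotransposon-derived gene of placenta and fetal muscle, the ubiquitin protease Usp29 and the ubiquitin ligase adaptor Asb4 fell by 0.78 ± 0.13, 0.74 ± 0.11 and 0.71 ± 0.13. The adult means were 7.46 for Nnat and 11.81 for Ndn.

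**Figure D4:**
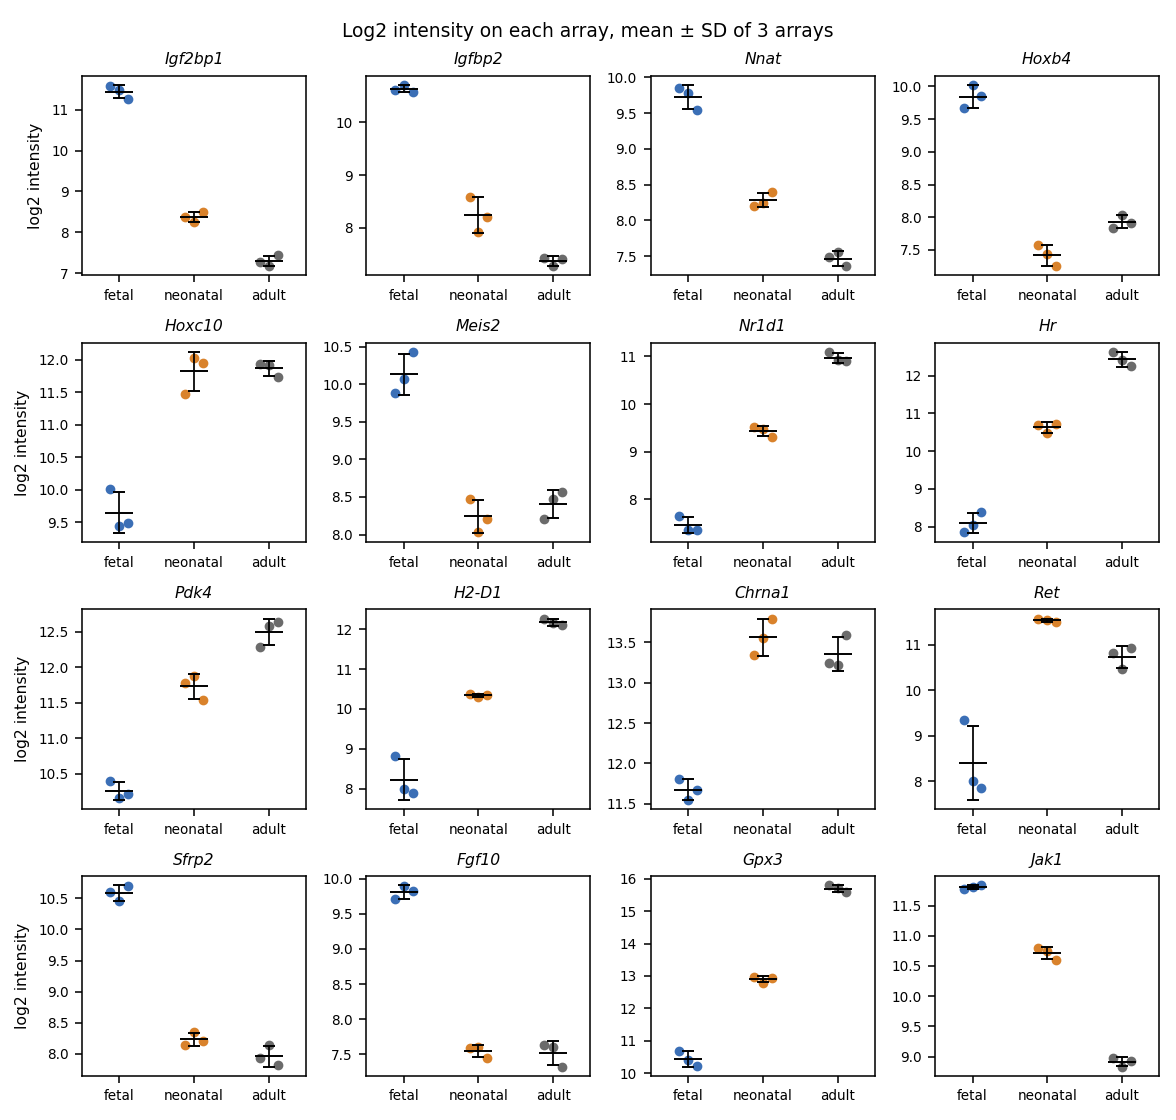
Log2 intensity of 16 named genes on each array, with 3 points per age, a bar at the mean and the SD of the 3 arrays; each panel has its own axis. The 16 genes were picked from those called. Fetal and neonatal points do not overlap in any of the 16 panels, which also held for 32.7% of all genes. Adult values are shown beside them.

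The circadian clock is a loop in which the activators Clock and Arntl, or Npas2, switch on the Per and Cry repressors and the Nr1d1 and Nr1d2 receptors, which in turn repress Arntl; Dbp and its relatives pass the rhythm on to output genes. Of 18 clock genes, 8 rose and 1 fell (44.4% and 5.56%, against 6.01% and 6.72% of all genes), with a median change of 0.42; 5 rose without fetal replicate 2 or neonatal replicate 3. The hour at which cells were collected is not in the labels. Promoter sequence was set beside these genes because the activators bind the E-box (CACGTG) and Dbp binds the D-box (TTATGTAA). In 300-base windows from 250 bases before to 50 after each start (RefSeq, GRCm38.p6), searched on both strands, the E-box was present in 2349 of 32851 windows (7.15%) and the D-box in 308 (0.938%). Of the 18 clock genes 15 matched a window, of which 3 held the E-box (Ciart, Per1 and Tef) and 1 the D-box (Per3). A gene was counted if any of its windows held the motif, so these counts and the shares of windows are in unlike units. The 250 bases before the start of 3 of these genes are given here 5′ to 3′, with the motif in capitals: Ciart on the minus strand at chr3:95882229-95882478, Per3 on the minus strand at chr4:151044666-151044915 and Per1 on the plus strand at chr11:69098699-69098948.
Ciart: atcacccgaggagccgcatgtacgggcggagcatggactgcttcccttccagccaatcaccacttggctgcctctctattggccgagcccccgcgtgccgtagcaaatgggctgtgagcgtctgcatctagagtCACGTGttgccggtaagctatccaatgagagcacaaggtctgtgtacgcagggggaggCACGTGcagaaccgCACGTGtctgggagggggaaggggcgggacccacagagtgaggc
Per3: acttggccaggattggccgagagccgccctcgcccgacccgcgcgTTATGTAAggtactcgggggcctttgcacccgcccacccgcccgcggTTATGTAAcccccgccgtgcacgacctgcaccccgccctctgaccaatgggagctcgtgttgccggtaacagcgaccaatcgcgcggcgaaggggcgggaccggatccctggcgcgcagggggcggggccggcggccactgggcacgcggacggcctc
Per1: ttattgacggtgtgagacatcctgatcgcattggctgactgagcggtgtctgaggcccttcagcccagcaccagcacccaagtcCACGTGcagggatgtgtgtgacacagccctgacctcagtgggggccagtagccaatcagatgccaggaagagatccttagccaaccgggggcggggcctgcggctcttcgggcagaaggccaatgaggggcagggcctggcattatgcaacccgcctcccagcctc
Ciart held 3 E-boxes, which began 116, 58 and 44 bases before the start, Per3 held 2 D-boxes at 205 and 158 bases, and Per1 held 1 E-box at 166 bases. A match of letters shows only that they stand in the window.

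The 3 largest rises were in the output and repressor arms of the clock. Dbp, the output factor, read 9.89, 9.74 and 9.52 on fetal and 11.99, 12.18 and 12.43 on neonatal arrays, a 5.59-fold rise (adjusted p = 8.6e-06). Nr1d1 read 7.65, 7.37 and 7.36 against 9.53, 9.47 and 9.32 (1.98 ± 0.12, adjusted p = 2.7e-06), and Nr1d2 8.09, 8.51 and 8.46 against 9.42, 10.06 and 9.82 (1.41 ± 0.18, adjusted p = 0.00043). The adult means of Dbp, Nr1d1 and Nr1d2 were 13.11, 10.97 and 10.49. Ciart, a repressor that holds the 3 E-boxes printed above, read 8.16, 8.05 and 8.08 against 8.70, 8.57 and 8.65 (adjusted p = 0.012, but 0.054 without fetal replicate 2). Per3, with the D-boxes, read 7.42, 7.52 and 7.63 against 8.13, 7.98 and 8.34 (adjusted p = 0.012, but 0.064 without neonatal replicate 3).

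On the activating side, Arntl read 9.25, 8.38 and 8.60 on fetal and 10.02, 9.91 and 9.45 on neonatal arrays (1.05 ± 0.23, adjusted p = 0.012, but 0.065 and 0.058 without fetal replicates 2 and 3). Npas2 read 7.38, 7.46 and 7.51 against 8.0, 8.02 and 8.02 (adjusted p = 0.013, 0.051 without neonatal replicate 3). Clock changed by 0.36 ± 0.14 (adjusted p = 0.12, 0.04 without fetal replicate 1), and its other probe by -0.31. Among the Per repressors, Per1, whose window holds an E-box, read 10.86, 11.25 and 11.57 against 10.57, 10.38 and 10.37, a fall at the threshold (-0.78 ± 0.24, adjusted p = 0.0499) that became 0.059 with the replicate block and lay between 0.062 and 0.195 without fetal replicate 2 or 3, neonatal replicate 1, 2 or 3 or adult replicate 2. Per2 changed by -0.37 ± 0.15 (adjusted p = 0.15).

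**Figure D5:**
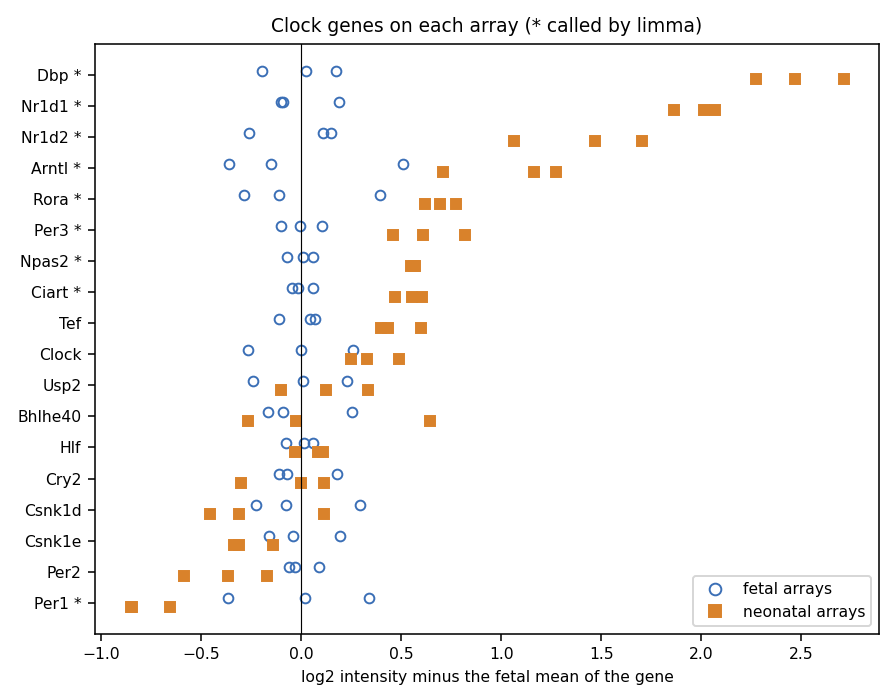
Log2 intensity of the 18 clock genes on each of the 3 fetal (open circles) and 3 neonatal (filled squares) arrays, as the difference from the fetal mean of the gene, with an asterisk for genes called by limma. Dbp, Nr1d1 and Nr1d2 lie farthest to the right, with neonatal arrays clear of fetal ones, and Per1 is the 1 called gene whose neonatal arrays lie to the left.

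Thyroid hormone and glucocorticoids both surge around birth and bind nuclear receptors that switch genes directly. Of 12 thyroid hormone genes 4 rose and 0 fell (33.3% against 6.01%; 2 rose without fetal replicate 1 or 2, neonatal replicate 2 or 3 or adult replicate 1 or 2). Hr, a corepressor whose gene is a direct target of the thyroid hormone receptor, read 7.85, 8.06 and 8.39 on fetal and 10.68, 10.47 and 10.73 on neonatal arrays, a 5.76-fold rise (adjusted p = 2.7e-06), with an adult mean of 12.43. Rcan2, a calcineurin inhibitor induced by thyroid hormone, rose by 1.27 ± 0.20 (adjusted p = 0.0014). Klf9, a target of both hormones, read 12.16, 11.12 and 12.85 against 13.92, 13.09 and 13.03 (adjusted p = 0.042), and it was not called without any 1 of fetal replicates 1 and 2, neonatal replicates 1 to 3 or adult replicates 1 and 2 (0.054 to 0.14). The receptor Thra was called at the threshold (0.43 ± 0.13, adjusted p = 0.047, 0.055 to 0.19 without any 1 of 7 arrays).

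Of 25 glucocorticoid-responsive genes, 10 rose and 3 fell (40.0% and 12%, against 6.01% and 6.72% of all genes), with a median change of 0.61; 6 rose without fetal replicate 2, and 1 fell without fetal replicate 2 or neonatal replicate 1 or 2 and 0 without fetal or neonatal replicate 3. Pdk4, the kinase that turns pyruvate away from the mitochondria, read 10.40, 10.16 and 10.22 on fetal and 11.78, 11.87 and 11.54 on neonatal arrays (1.47 ± 0.14, adjusted p = 4.2e-05). Foxo1, a transcription factor of fasting and atrophy, rose by 1.08 ± 0.14 (adjusted p = 0.00042), while its other probe changed by 0.10. Mt1, a metal-binding protein, read 13.92, 12.78 and 12.94 against 14.66, 14.49 and 14.54 (adjusted p = 0.0032). Hsd11b1, the enzyme that regenerates active glucocorticoid inside cells, rose by 1.36 ± 0.27 (adjusted p = 0.0062), from a fetal mean of 8.33 to 9.69, and averaged 14.20 on adult arrays. The kinase gene Sgk1 read 13.87, 12.88 and 12.82 against 14.73, 14.33 and 14.21 (adjusted p = 0.0099, but 0.055 and 0.053 without fetal replicates 2 and 3).

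Genes of fuel use were called in a minority of each list. Of 38 genes of PPAR signalling and fatty acid use 7 rose and 2 fell (18.4% and 5.26%, against 6.01% and 6.72% of all genes). Beside Pdk4 and Angptl4, the risers held the lipase Pnpla2 (1.25 ± 0.24, adjusted p = 0.0057), the mitochondrial thiolase Acaa2 (0.68 ± 0.14, adjusted p = 0.0068) and the fatty acid carrier Fabp3 (0.81 ± 0.16, adjusted p = 0.007). The carrier Fabp5 read 9.17, 9.84 and 9.65 on fetal and 8.06, 8.10 and 8.14 on neonatal arrays (-1.45 ± 0.15, adjusted p = 9.8e-05), and Pparg, the regulator of fat cells, fell by 0.81 ± 0.14. Of 26 genes of sterol and fatty acid synthesis 6 fell and 0 rose (23.1%, median -0.36), among them the sterol enzyme Lss (-0.83 ± 0.15), the regulator Srebf1 (-0.70 ± 0.13) and the elongase Elovl5 (-0.73 ± 0.15).

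Of 25 glycolysis genes 6 fell and 1 rose (24.0% and 4.0%); 3 fell without fetal replicate 3 or neonatal replicate 2, while 3 rose without fetal replicate 1 and 2 without adult replicate 3 or with the replicate block. Pfkl, the liver form of phosphofructokinase, read 12.32, 12.27 and 12.28 on fetal and 11.21, 10.95 and 11.04 on neonatal arrays (-1.22 ± 0.12, adjusted p = 4.8e-05), while Pfkp, the platelet form of the same enzyme, rose by 1.08 ± 0.16 (adjusted p = 0.001). Tpi1, the triose phosphate isomerase, fell by 1.14 ± 0.11 (adjusted p = 4.6e-05) and Pdk1, a pyruvate dehydrogenase kinase induced by low oxygen, by 0.87 ± 0.14 (adjusted p = 0.0017). Ldha, lactate dehydrogenase, read 14.23, 14.39 and 14.25 against 13.65, 13.49 and 13.86 (adjusted p = 0.018, but 0.082, 0.055 and 0.076 without fetal replicate 2 or 3 or neonatal replicate 2). Of 25 hypoxia genes 2 rose and 3 fell (8.0% and 12%, against 6.01% and 6.72%; 1 rose without fetal replicate 1 or 2 or neonatal replicate 2 or 3), with the vasodilator Adm higher by 1.11 ± 0.14 (adjusted p = 0.0004) and Hif1a at 0.21 ± 0.29 (adjusted p = 0.73).

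Of 66 oxidative phosphorylation genes 3 rose and 2 fell (7.58% called, against 12.7% of all genes), with Cox7a1, the muscle form of a cytochrome oxidase subunit, higher by 0.77 ± 0.15 and Atp5k, a subunit of the ATP synthase, by 0.85 ± 0.18; 5 rose without neonatal replicate 1, and the falls numbered 0 or 1 without any 1 of the 6 arrays of the step. Of 54 cytosolic ribosomal protein genes 4 fell and 0 rose (7.41% called), or 9 fell and 1 rose with the most variable probe and 7 fell with the mean of all probes, among them Rpl4 (-0.78 ± 0.10), Rpl13a (-0.81 ± 0.12) and Rplp0 (-0.75 ± 0.12). Of 24 genes of ATF4 and amino acid supply 3 rose and 3 fell (12.5% each, against 6.01% and 6.72% of all genes). The rises numbered 1 without fetal replicate 2 and 5 with the replicate block. Asns, which makes asparagine, fell by 1.08 ± 0.16 (adjusted p = 0.0012), whereas Ddit3, a stress factor of the same ATF4 list, rose by 0.99 ± 0.19 (adjusted p = 0.0049).

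Class I molecules show peptides cut by the immunoproteasome and carried by the Tap transporter to T cells. Of 23 measured genes 8 rose and 1 fell (34.8% and 4.35%, against 6.01% and 6.72%), with a median change of 0.26; the fall was not called without fetal replicate 1 or 3 or neonatal replicate 2 or 3. The class I heavy chain H2-D1 read 8.82, 7.99 and 7.89 on fetal and 10.37, 10.29 and 10.36 on neonatal arrays, a 4.31-fold rise (adjusted p = 4.8e-05), and its adult mean was 12.17. Another H2-D1 probe changed by 2.10, while those with changes of -0.07 and 0.48 were not called. The non-classical chains H2-T23 and H2-M3 rose by 1.23 ± 0.23 and 0.61 ± 0.12. H2-K1 read 8.61, 7.91 and 7.97 against 9.24, 9.14 and 8.98 (adjusted p = 0.013, 0.071 and 0.066 without fetal replicates 2 and 3). The peptide transporter subunit Tap2 rose by 1.13 ± 0.18 (adjusted p = 0.0019), and the immunoproteasome subunits Psmb9 and Psmb8 rose by 0.69 ± 0.11 and 0.56 ± 0.11 (adjusted p = 0.0017 and 0.0055). B2m, the light chain shared by class I molecules, changed by 0.65 ± 0.18 (adjusted p = 0.037, but 0.057 to 0.135 without fetal replicate 2 or neonatal replicate 1, 2 or 3).

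Of 33 interferon-response genes 8 rose and 0 fell (24.2%, median 0.27), but only 3 rose without fetal replicate 2 or 3, 4 without neonatal replicate 1 or 2 and 5 without neonatal replicate 3, and 1 fell without neonatal replicate 1. Irf1, a transcription factor that switches on class I and immunoproteasome genes, read 13.58, 13.15 and 13.32 on fetal and 14.20, 14.09 and 14.35 on neonatal arrays (0.86 ± 0.14, adjusted p = 0.0021), and the interferon-inducible GTPase Igtp rose by 1.08 ± 0.24 (adjusted p = 0.012). Of 9 complement genes 3 rose and 0 fell (33.3% and 0%, against 6.01% and 6.72% of all genes). The genes that rose included the regulators Cd59a (1.16 ± 0.15, adjusted p = 0.00044) and Serping1 (1.45 ± 0.22, adjusted p = 0.0012), which protect cells from complement. Of 29 NF-kB and chemokine genes 1 rose and 2 fell (3.45% and 6.90%, against 6.01% and 6.72% of all genes). The rises numbered 7 without fetal replicate 1 and 5 with the replicate block. In that list, the chemokine Cxcl10 rose from 10.19, 8.58 and 8.51 to 10.89, 10.76 and 10.61 (adjusted p = 0.0083), with fetal replicate 1 near the neonatal arrays. Its other probe changed by 0.58 and was not called in a limma fit of all probes (adjusted p = 0.29). The cytokine Il6 fell by 1.57 ± 0.27 (adjusted p = 0.0033).

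Immediate early and stress genes are switched on within minutes by growth factors, handling or tissue dissociation, and the time from tissue to RNA is not in the labels; its part was not tested. Of 38 measured, 16 rose and 2 fell (42.1% and 5.26%, against 6.01% and 6.72% of all genes), with a median change of 0.39. Without fetal replicate 2 there were 9 rises, and without fetal replicate 3 or neonatal replicate 2 or 3 there were 10; the falls numbered 1 without fetal replicate 1 or neonatal replicate 1 or 2 and 0 without fetal or neonatal replicate 3. Ier3, a survival factor, read 11.27, 10.43 and 10.40 on fetal and 12.36, 12.05 and 12.07 on neonatal arrays (1.46 ± 0.22, adjusted p = 0.0013). The transcription factors Atf3 and Egr2 rose by 0.92 ± 0.14 and 0.80 ± 0.13, the phosphatase Dusp1 by 0.68 ± 0.14, and the matricellular proteins Ccn1 and Ccn2 by 1.13 ± 0.22 and 0.93 ± 0.18. Among p53 targets 5 of 23 rose and 0 fell (21.7% and 0%), with 3 rises without fetal or neonatal replicate 2 or 3. The DNA damage gene Gadd45a was higher by 1.35 ± 0.21 and the kinases Plk2 and Plk3 by 0.96 ± 0.15 and 1.04 ± 0.16. The heat shock chaperone Hspa1a varied widely within the fetal arrays (13.65, 10.70 and 12.94, against 14.09, 14.69 and 14.91), and its call (adjusted p = 0.027) was lost without neonatal replicate 2 or 3 (0.08 and 0.10).

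Axon guidance cues also steer migrating muscle precursors. Of 44 ephrin, semaphorin and slit genes 11 fell and 3 rose (25.0% and 6.82%, against 6.72% and 6.01% of all genes). There were 7 falls without fetal replicate 3 and 5 rises without adult replicate 3. The repellents Sema3a (-1.17 ± 0.14), Sema3f (-1.29 ± 0.17), Sema5a (-1.09 ± 0.15) and Slit3 (-1.21 ± 0.23) fell. Slit2 fell by 0.96 ± 0.11 on the probe used, and with the mean of its 6 probes the adjusted p was 0.33. Among receptors, Epha3 read 10.92, 11.23 and 11.33 on fetal and 9.80, 9.59 and 9.24 on neonatal arrays (adjusted p = 0.00013), whereas Ephb1 rose 4.90-fold, from 7.88, 8.09 and 7.97 to 10.28, 10.11 and 10.43 (adjusted p = 2.7e-06). The other probe of Ephb1 changed by 0.37 and was not called. The semaphorin receptor Plxnd1 read 8.66, 8.61 and 8.59 against 10.87, 10.40 and 10.54 (1.99 ± 0.13, adjusted p = 3.3e-06), and its adult mean was 12.16. These genes were named because they were called, and 30 of the 44 were not called, so no contrast of ligands with receptors is drawn.

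Of 20 FGF genes 5 fell and 2 rose (25.0% and 10%, against 6.72% and 6.01% of all genes); the falls numbered 3 without fetal replicate 1 or 2, neonatal replicate 2 or adult replicate 2 and 2 without fetal or neonatal replicate 3, and the rises 1 without fetal replicate 2 or neonatal replicate 3. The ligand Fgf10, a signal of limb and organ buds, read 9.71, 9.90 and 9.82 on fetal and 7.59, 7.60 and 7.45 on neonatal arrays, at the low end of the arrays (adjusted p = 1.2e-06). The FGF-responsive factors Etv1 and Etv4 moved apart, by -1.21 ± 0.17 and 0.73 ± 0.14. The receptor Fgfr1 rose by 0.93 ± 0.21 (adjusted p = 0.014, lost at 0.076 when fetal replicate 2 was left out and at 0.056 when neonatal replicate 3 was). Of 41 TGF-beta and BMP genes 5 fell and 3 rose, 12.2% and 7.32%, not far from the shares of all genes (3 falls without fetal replicate 2 or neonatal replicate 3). Within that family the ligand Bmp4 rose from 12.19, 11.75 and 11.79 to 13.14, 13.06 and 13.12 (adjusted p = 0.00042) and Tgfb3 by 0.63 ± 0.11, while the ligands Bmp7 (-0.90 ± 0.12) and Gdf10 (-1.79 ± 0.35) and the BMP antagonist Nog (-0.80 ± 0.11) fell. Neonatal replicate 1 was the highest of the neonatal arrays for Gdf10 (9.43, against 7.78 and 7.74).

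Of 38 Wnt genes 5 fell and 1 rose (13.2% and 2.63%, against 6.72% and 6.01%), with 3 falls without fetal replicate 2 or neonatal replicate 3, 8 without neonatal replicate 1, and 2 rises without neonatal replicate 2 or adult replicate 3 or with the replicate block. The secreted modulator Sfrp2 read 10.60, 10.45 and 10.70 on fetal and 8.14, 8.35 and 8.21 on neonatal arrays, a 5.10-fold fall (adjusted p = 1.2e-06). The nuclear factors Tcf7l1 and Tcf7l2 fell by 0.56 ± 0.12 and 0.81 ± 0.17, and the receptor Fzd5 rose by 0.97 ± 0.17. Of 26 Notch genes 4 rose and 1 fell (15.4% and 3.85%). The rises numbered 1 without neonatal replicate 2 or 3 and 2 without fetal replicate 2 or 3. The Notch ligand Dll1, which keeps neighbouring cells undifferentiated, read 9.33, 9.19 and 9.33 against 10.33, 10.96 and 11.25 (1.56 ± 0.31, adjusted p = 0.0066). In the hedgehog list 1 of 9 genes rose and 1 fell (11.1% each, against 6.01% and 6.72% of all genes). The falls numbered 2 with the replicate block or without adult replicate 1 or 3. The co-receptor Cdon rose by 0.78 ± 0.14 and the repressor-forming factor Gli3 fell by 0.83 ± 0.16. Of 16 retinoic acid genes 3 fell and 0 rose (18.8% and 0%), while the median change of the list was 0.20. The falls numbered 2 without fetal or neonatal replicate 2 or 3. Crabp1, which binds retinoic acid in the cytoplasm, read 9.19, 9.13 and 9.16 against 7.44, 7.52 and 7.48 (adjusted p = 4.0e-06). Aldh1a2, the enzyme that makes retinoic acid in the embryo, fell by 0.74 ± 0.12.

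In the cytokine and hormone receptor list of 29 genes 3 fell and 1 rose (4 rose without fetal replicate 1), and the 13.8% called lay near the 12.7% of all genes. Jak1, a kinase shared by many cytokine receptors, read 11.78, 11.80 and 11.84 on fetal and 10.80, 10.75 and 10.59 on neonatal arrays (-1.09 ± 0.11, adjusted p = 5.3e-05), and its adult mean was 8.92. Stat5a, a factor that acts after growth hormone, rose by 1.35 ± 0.12 (adjusted p = 3.4e-05), while the growth hormone receptor Ghr fell by 0.80 ± 0.15 (adjusted p = 0.0048). Of 11 GDNF and neurotrophin genes 2 rose and 3 fell (18.2% and 27.3%, against 6.01% and 6.72% of all genes). The falls numbered 1 without fetal or neonatal replicate 2 or 3. Ret, named among the largest rises, read 9.34, 8.02 and 7.86 on fetal and 11.57, 11.54 and 11.50 on neonatal arrays (adjusted p = 5.2e-05). Its co-receptor Gfra1, which binds GDNF, rose by 0.70 ± 0.15 (adjusted p = 0.01), and the neurotrophin receptor Ngfr fell by 0.66 ± 0.13 (adjusted p = 0.0053).

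Genes of nerve contact and calcium control were described next. Chrna1, a subunit of the acetylcholine receptor, read 11.80, 11.55 and 11.68 on fetal and 13.34, 13.55 and 13.79 on neonatal arrays, a 3.69-fold rise (adjusted p = 1.7e-05), and Musk, the kinase that gathers these receptors under the nerve, rose by 0.83 ± 0.14 (adjusted p = 0.0021). Of 15 synapse genes these 2 rose and 1 fell (13.3% and 6.67%, against 6.01% and 6.72%); 4 rose with the mean of all probes or the most variable probe, and the fall was not called without any 1 of fetal replicates 1 to 3 or neonatal replicates 2 and 3. Of 24 calcium genes 6 rose and 1 fell (25.0% and 4.17%). The fast-fibre calcium pump Atp2a1 read 10.94, 10.41 and 10.29 against 12.42, 12.84 and 12.95 (2.19 ± 0.31, adjusted p = 0.00086), and the store-operated channel Orai1, the excitation-contraction adaptor Stac3 and the release channel Itpr2 rose by 1.14 ± 0.15, 1.32 ± 0.24 and 1.07 ± 0.22. Sln, the small inhibitor of these pumps, fell by 1.39 ± 0.31 (adjusted p = 0.013, 0.056 without neonatal replicate 3). Dag1, the dystroglycan of the fibre surface, rose by 0.83 ± 0.17 and the cell-surface cadherin Cdh13 by 1.58 ± 0.19. In the dystrophin complex list 1 of 16 genes rose and 1 fell (6.25% each). In the cadherin list 2 of 26 rose and 2 fell (7.69% each). Both lists lay near the shares of all genes.

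Contractile genes were called in both directions. Of 10 fast-fibre genes 3 rose and 1 fell (30% and 10%, against 6.01% and 6.72% of all genes). With neonatal replicate 1 left out, 3 fell. The calcium buffer Pvalb (1.63 ± 0.22), the Z-disc protein Actn3 (0.96 ± 0.14) and Atp2a1 rose. The troponin Tnni2 fell from 11.72, 11.57 and 11.51 to 9.49, 8.56 and 8.59. Of 10 slow and developmental genes 1 rose and 1 fell (10% each, not far from the shares of all genes). The light chain Myl2 rose by 0.99 ± 0.12 and the slow troponin Tnnt1 fell by 1.24 ± 0.14. In that list 2 genes rose without fetal replicate 1 or adult replicate 2 or 3, and 3 fell without adult replicate 1 or 3.

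Iron genes rose in 7 of 17 cases and fell in 0 (41.2% and 0%, against 6.01% and 6.72% of all genes), with a median change of 0.30. With the replicate block 1 fell. The members that rose cover import, export and recycling: the importer Slc11a2 and the plasma carrier Trf rose by 0.64 ± 0.12 and 1.24 ± 0.23, the exporter Slc40a1 and the ferroxidase Cp, which loads iron onto that carrier, by 0.76 ± 0.13 and 1.77 ± 0.24, and the haem-degrading enzyme Hmox1 by 0.97 ± 0.12. Erfe, a hormone that lowers hepcidin, read 10.08, 8.96 and 8.77 on fetal and 13.37, 12.68 and 12.56 on neonatal arrays (adjusted p = 4.5e-05), and its adult mean was 15.26. The erythroid sums given above moved with this list across the ages of the step; on adult arrays those sums were 34031 to 46781, below the neonatal and above the fetal ones. Among single erythroid genes, the adult means of Slc4a1 (7.80) and Alas2 (7.76) lay near the fetal means of 7.66 and 7.28, whereas those of Hba-a1 (13.71), Hbb-bs (13.59) and Hbb-bt (13.28) lay well above the fetal means of 9.71, 9.98 and 9.85. Epor, the erythropoietin receptor, rose by 0.95 ± 0.14 (adjusted p = 0.00086). Of 36 antioxidant genes 6 rose and 0 fell (16.7% against 6.01% of all genes called higher). Without neonatal replicate 1, 1 fell. The secreted peroxidase Gpx3 read 10.69, 10.40 and 10.22 against 12.97, 12.79 and 12.93, a 5.52-fold rise (adjusted p = 1.2e-06), with an adult mean of 15.70, and the glutathione transferase Gstt1 and the thioredoxin inhibitor Txnip rose by 1.44 ± 0.12 and 1.09 ± 0.16.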

How the data were processed

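Values were linear intensities per probe of an Illumina bead array as the authors deposited them; background correction, normalization and detection are not given in the sources used here. Per the labels' protocols, RNA was isolated with mirVana reagents, checked on a Bioanalyser and amplified to biotin-labelled cRNA with an Illumina TotalPrep kit. The number of arrays limits the precision. Intensities were taken to log2, and of 24538 probes the 20211 with 1 gene symbol in the platform annotation were kept. Each of 12488 genes was represented by its brightest probe over all 9 arrays, adult ones included, and 4997 had several.

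A model of 3 groups with no block was fitted to all 9 arrays by lmFit and eBayes (limma 3.58.1 under R 4.3.3), and the neonatal minus fetal contrast was tested two-sided, with Benjamini-Hochberg adjustment over all genes and a threshold of 0.05. The pipeline was tested on simulated data. The members and gene lists were chosen with earlier results of these data known. Of 1474 list entries 1133 matched a gene, 7 of them by an older symbol, and 341 were not analysed here. Named genes were the 15 largest rises and falls of the ranking, members of the lists, and a fixed set of stem cell, growth and marker genes. The ranking took called genes whose arrays did not overlap and whose higher group mean was at or above the median of all genes. Provisional symbols, such as clone names, were left out of it. Among called list members, mostly those whose call held with each array left out were named.

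Same-numbered fetal and neonatal arrays deviated together from their group means (correlations of 0.294, 0.122 and 0.107 over genes). Same-numbered correlations with the adult arrays were 0.115, -0.059 and 0.149 for fetal and 0.0997, -0.028 and 0.244 for neonatal arrays. The main fit has no block. The numbers were taken to pair the arrays in an alternative fit with the replicate number as a block, which is given where it changed a call. The source of this pairing is the replicate number in the labels, which do not say what it marks, and fetal replicate 3 correlated more with neonatal replicate 2 (0.234). Neonatal replicate 1 was deposited with fewer decimals than the other 8. Alternatives were other probes per gene, a filter on dim genes, other normalizations, background subtraction, moderation, array weights, the block and leaving out each array.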

Additional observations from a re-analysis of the deposited data

How the results depend on the processing

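The count of 1590 called genes moved to 1021 when only genes at or above the median intensity were tested (489 lower), which tests fewer genes, to 2833 with array quality weights (1278 higher, 1555 lower), and to 2461 with the replicate block on only the 6 fetal and neonatal arrays (1174 higher, 1287 lower), an alternative chosen after seeing the data; the cause of the last 2 was not tested. With the replicate block on all 9 arrays, 1846 genes were called (890 higher, 956 lower). Leaving out 1 array gave 881 (without fetal replicate 2) to 1831 (without adult replicate 3) called genes, 422 to 867 higher and 446 to 964 lower. Of 196 named genes 182 were called; 159 of these held with each array left out and 157 under all alternatives in which they were tested, and 0 changed sign. The replicate block changed the call of 3, Itga7, Mymk and Per1. Among genes that were not called, Clock changed by -0.31 with the most variable probe and Igf1 by 0.049 with array weights. With 1 array left out, Pax7 lay between -0.023 and 0.041, Cd34 between -0.10 and 0.16, Igf1 between -0.30 and 0.077 and Igf2 between -0.093 and 0.039; the cause was not tested. Without detection values, changes near the low end of the arrays cannot be told from background.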

Other observations

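Members called by limma were counted in gene families read from their symbols and chosen after the data were seen, beside 6.01% of all genes called higher and 6.72% called lower. Of 240 solute carriers named Slc, which move nutrients and ions across membranes, 16 rose and 10 fell (6.67% and 4.17%), near those shares. Of 237 zinc finger genes named Zfp, 3 rose and 12 fell, and of 15 tetraspanins named Tspan, which organise membrane proteins, 4 rose and 2 fell. Of 72 mitochondrial ribosomal protein genes 1 rose and 1 fell. Of 190 olfactory receptor genes 0 were called by limma; 6 had an unadjusted p under 0.05, and 1 was called with the trend and robust settings and 1 with array quality weights. No test of a difference between families was run.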
